A study of Mus musculus with 5 samples.

Results

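The 10 genes described here encode proteins that store iron, degrade heme, repair oxidised proteins and lipids, make glutathione and bind metal ions. They are the ferritin chains Fth1 and Ftl1, the heme and redox enzymes Hmox1, Srxn1, Nqo1, Gclm, Txnrd1 and Gpx4, and the metallothioneins Mt1 and Mt2. They were chosen by gene symbol with earlier results of these data known, so counts among them set against all genes are descriptive. All 10 were among the 18783 genes of the authors' deposited table. RNA was sequenced from primary astrocyte cultures of newborn C57BL/6 mice. The groups were 1 library of cultures given 1 µM Aβ (amyloid-β peptide) with 50 µM DFMO, called Aβ+DFMO, 2 libraries of cultures given 1 µM Aβ alone, and 2 libraries of untreated cultures, called Control. Agents were added from day 7 in vitro for 5 days, and cells were harvested at day 12. DFMO (difluoromethylornithine) inhibits ornithine decarboxylase, the first enzyme of polyamine synthesis. Whether a group's libraries stem from separate cultures is not given in the labels, so p-values measure a spread between them that may be technical.

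NRF2, encoded by Nfe2l2, is a transcription factor that KEAP1 marks for degradation until electrophiles or oxidants modify KEAP1. NRF2 then binds antioxidant response elements in the promoters and enhancers of genes such as Hmox1, Nqo1, Gclm, Txnrd1, Srxn1 and both ferritin chains. Metallothioneins are small cysteine-rich proteins that bind zinc and copper, and their genes are driven by the zinc-sensing factor MTF1 through metal response elements, as well as by glucocorticoids and oxidants. In the brain, astrocytes are known as a main source of metallothionein and of glutathione, while microglia and oligodendrocytes are rich in ferritin.

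Values are the authors' normalized group means, which carry no error of their own, and values per library were not used here. The Aβ+DFMO library had 4825677 reads, the Aβ libraries 46886111 and 105544237, and the Control libraries 49020833 and 49676004. Between 84.4% and 85.2% of each library's reads lay within exons. A standard error is given as implied by the authors' two-sided p-value under a Wald test, and a 95% interval follows from it. Genes with an adjusted p under 0.05 (DESeq2, by the authors) are described as called. Every call for Aβ+DFMO rests on 1 shallow library that was modelled as varying like the others. Astrocyte markers were present in all groups: the authors' means of Gfap were 41383 in Aβ+DFMO, 57495 in Aβ and 57209 in Control per the authors' deposited table. Markers of other cells were present too, with summed means of 12 microglia and macrophage genes of 16680 in Aβ+DFMO, 21178 in Aβ and 28560 in Control. The sums of 8 oligodendrocyte lineage genes were 21418 in Aβ+DFMO, 39637 in Aβ and 39637 in Control. Endothelial markers summed to 52.2 in Aβ+DFMO, 52.2 in Aβ and 40.5 in Control over the 3 measured genes. In such bulk RNA, fewer cells of a type and less RNA per cell cannot be told apart.

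Promoter sequences of RefSeq (GRCm38.p6) were matched for 9 of the 10 genes, all but Hmox1. Those of Srxn1, Mt2 and Mt1 are shown as the promoter with most antioxidant cores among the 9 matched genes and those of the metallothionein pair. Letters in capitals are antioxidant response element cores (TGACNNNGC or TGAGNNNGC) and metal response element cores (TGCACNC or TGCGCNC) on either strand. Srxn1 lies on the plus strand at chr2:152105274-152105515 for the stretch shown, Mt2 on the plus strand at chr8:94172368-94172617 and Mt1 on the plus strand at chr8:94178839-94179081.
Srxn1: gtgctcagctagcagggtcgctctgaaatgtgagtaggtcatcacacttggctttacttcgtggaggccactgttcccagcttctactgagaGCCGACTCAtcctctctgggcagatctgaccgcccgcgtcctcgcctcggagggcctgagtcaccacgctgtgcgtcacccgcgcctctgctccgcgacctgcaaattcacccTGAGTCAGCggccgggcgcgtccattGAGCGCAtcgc
Mt2: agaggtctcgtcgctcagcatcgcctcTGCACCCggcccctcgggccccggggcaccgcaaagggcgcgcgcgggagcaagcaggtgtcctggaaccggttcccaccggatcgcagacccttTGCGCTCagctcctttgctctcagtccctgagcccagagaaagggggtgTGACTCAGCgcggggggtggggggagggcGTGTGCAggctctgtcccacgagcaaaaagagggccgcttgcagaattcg
Mt1: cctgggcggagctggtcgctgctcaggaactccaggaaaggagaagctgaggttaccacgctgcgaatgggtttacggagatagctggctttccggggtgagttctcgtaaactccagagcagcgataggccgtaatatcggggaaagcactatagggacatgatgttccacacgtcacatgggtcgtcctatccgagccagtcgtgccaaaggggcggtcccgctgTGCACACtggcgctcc

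Srxn1 held 2 antioxidant response element cores in this window, of which the one nearer the gene also reads as an AP-1 site (TGANTCA), as does the single core of Mt2, and Srxn1 held another AP-1 site apart from these cores. Metal response element cores in the 250 bases before each start site numbered 3 in Mt2, 2 in Gclm, 1 in Mt1 and 1 in Srxn1. The stretches shown end before the first annotated base of each gene, at 242 bases for Srxn1, 250 for Mt2 and 243 for Mt1. Cores outside the searched windows, among them any beyond the annotated start of a gene, were not counted. The numbers therefore do not describe whole promoters and depend on where each start is annotated, so they do not rank the genes. Of 32851 promoters of 250 bases, 23.0% held an antioxidant core, 21.4% a metal core, 1.26% at least 3 metal cores and 6.75% an AP-1 site. An antioxidant core was also present in the windows of Gclm and of 1 of the 3 start sites of Txnrd1, and no such core was in the windows of Ftl1, Fth1, Nqo1 or Gpx4. These matches describe letters in a short window and say nothing of binding.

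Per kilobase of transcript, the ferritin heavy chain and the metallothioneins stood at the top of the 10 genes. The authors' mean per kilobase of Fth1, whose product oxidises and stores iron, was 89481 in Aβ+DFMO, 104067 in Aβ and 99648 in Control. Mt2 followed at 27462 in Aβ+DFMO, 44789 in Aβ and 43868 in Control, and Mt1 at 29077 in Aβ+DFMO, 43343 in Aβ and 43071 in Control. Ftl1, the ferritin light chain that helps nucleate the iron core, was at 7526 in Aβ+DFMO, 18774 in Aβ and 16130 in Control per kilobase. Below them in Aβ came Hmox1 (4072), Txnrd1 (3065), Gpx4 (1798), Gclm (1178) and Srxn1 (1163), and Nqo1 was lowest at 218 per kilobase. On GRCm38 (GENCODE M21) Fth1 lies on chromosome 19 at 9980598 to 9985098, and Hmox1 (75093621 to 75100589), Mt2 (94172664 to 94173568), Mt1 (94179082 to 94180327) and Nqo1 (107388225 to 107403206) lie on chromosome 8. Srxn1 lies on chromosome 2 at 152105516 to 152111376, Gclm on chromosome 3 at 122245557 to 122270732 and Txnrd1 on chromosome 10 at 82833951 to 82897712. The levels of Ftl1 and Gpx4 depend on how reads shared with near-identical copies were assigned, as described below.

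**Figure D1:**
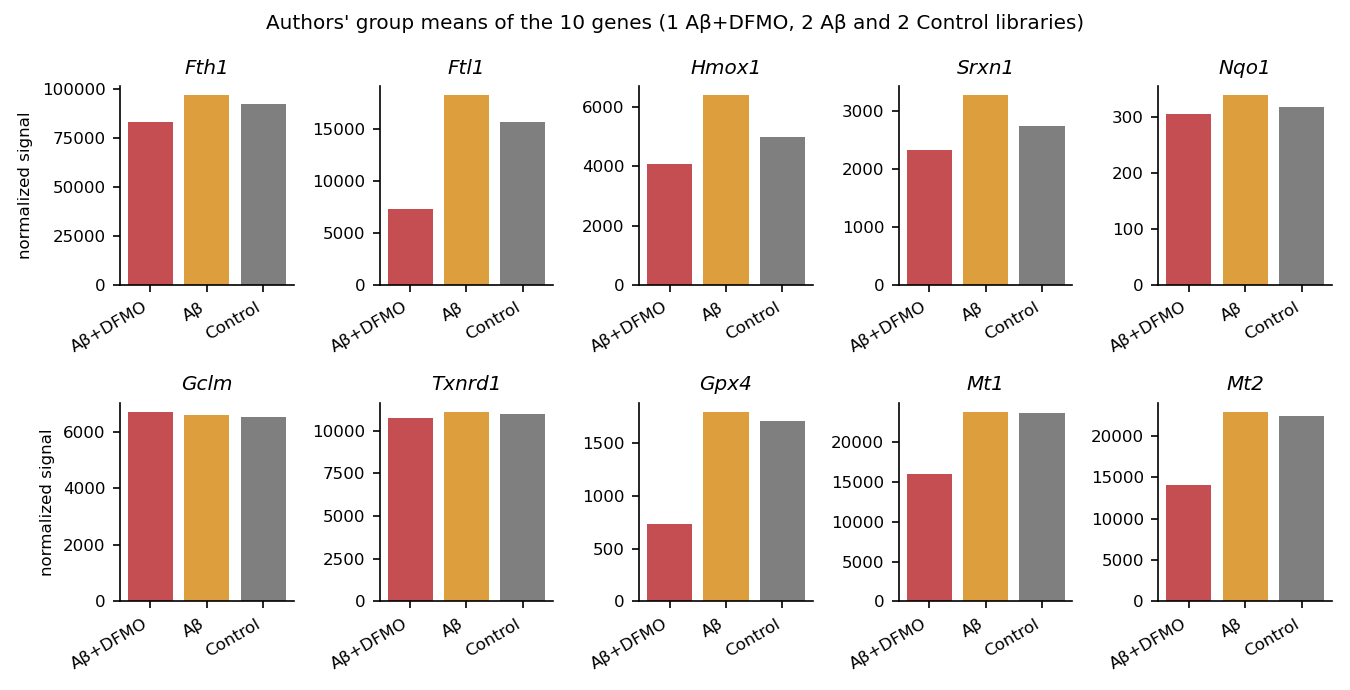
Authors' normalized group means (y axis, from 0) of the 10 genes in Aβ+DFMO (1 library), Aβ (2 libraries) and Control (2 libraries); no error is available for a bar. Ftl1 was at 7285 in Aβ+DFMO, 18174 in Aβ and 15613 in Control, whereas Gclm was at 6692 in Aβ+DFMO, 6582 in Aβ and 6512 in Control.

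The first comparison asked what Aβ changes relative to untreated cultures. All 10 genes had a higher authors' mean in Aβ than in Control, by 0.01 to 0.36 on the log2 scale, but none passed the test of the authors' DESeq2 table. Of all genes tested, 0.287% were called in this comparison and 0.112% were called higher, so that 0 of 10 is near the background. The count was also 0 with the GC trend described below taken out, where 0.285% of genes were called, and with GC and length taken out, where 0.29% were. At an unadjusted p under 0.05, 3 of the 10 were higher (Hmox1, Ftl1 and Srxn1), where 1.72% of all genes lay under that value in either direction and 0.453% did so and were higher. Of all genes, 76.6% had a DESeq2 p over 0.5, more than evenly spread p-values would give. The deposited p-values may thus be too large, and the intervals implied from them too wide. The median log2 ratio was 0.07 over the 10 genes and 0.00 over all genes tested, of which 9597 of 18783 had a positive ratio. With trends on GC content and transcript length taken out, Mt1 (−0.04) and Mt2 (−0.02) lay below 0 and the other 8 above it.

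Hmox1, the inducible enzyme that splits heme into biliverdin, carbon monoxide and iron, had an authors' mean of 6389 in Aβ and 4987 in Control per the authors' deposited table. Its log2 ratio of 0.36 had an implied standard error of 0.102 (95% interval 0.16 to 0.56) and an adjusted p of 0.135 in the authors' DESeq2 table, the smallest of the 10. Ftl1 stood at 18174 in Aβ and 15613 in Control per the authors' deposited table, with a log2 ratio of 0.22 (implied standard error 0.0747, DESeq2 adjusted p = 0.561). For Srxn1, sulfiredoxin, which reactivates overoxidised peroxiredoxins, the authors' deposited table gave 3271 in Aβ and 2745 in Control, a log2 ratio of 0.25 (implied standard error 0.117, DESeq2 adjusted p = 1.00). The 95% intervals of these 3 genes lay above 0 before any adjustment for the number of genes tested. That follows from their unadjusted p-values, from which the intervals were derived, and adds no further evidence.

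The other 7 genes lay closer to Control. Fth1 had an authors' mean of 96679 in Aβ and 92573 in Control per the authors' deposited table, with a log2 ratio of 0.06 (95% interval −0.09 to 0.22). Gclm encodes the modifier subunit of glutamate-cysteine ligase, the enzyme that limits glutathione synthesis. It stood at 6582 in Aβ and 6512 in Control per the authors' deposited table (0.02, 95% interval −0.18 to 0.21). Txnrd1, cytosolic thioredoxin reductase, was at 11100 in Aβ and 10989 in Control per the authors' deposited table (0.01, 95% interval −0.16 to 0.19). These 3 intervals include no change and reach no higher than 0.22 on the log2 scale. Nqo1, a quinone reductase, had the widest interval, −0.32 to 0.50, at 339 in Aβ and 319 in Control per the authors' deposited table. Gpx4, the selenoenzyme that reduces lipid hydroperoxides and so guards against ferroptosis, was at 1789 in Aβ and 1702 in Control per the authors' deposited table (0.07, 95% interval −0.18 to 0.33). Among the metallothioneins, Mt1 was at 23795 in Aβ and 23646 in Control and Mt2 at 22887 in Aβ and 22417 in Control per the authors' deposited table. Their 95% intervals were −0.17 to 0.19 for Mt1 and −0.12 to 0.18 for Mt2.

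Levels of microglia and macrophage markers differed between the same libraries. Of the 12 such genes, 5 fell in Aβ and none rose (P2ry12, Tmem119, Csf1r, Fcrls and C1qa), with a median log2 ratio of −0.71. Of all 18783 genes, 33 were called lower in Aβ and 21 higher. Cd68, a lysosomal protein of phagocytes, was at 2735 in Aβ and 2178 in Control per the authors' deposited table (0.33, DESeq2 adjusted p = 0.145). Their part in the values of Hmox1 and Ftl1 was not tested.

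The second comparison asked what DFMO changes in cultures that also receive Aβ. In the Aβ+DFMO library 6 of the 10 genes fell relative to Aβ and none rose in the authors' DESeq2 table, against 5.18% of all genes called lower, 4% called higher and 9.18% called in either direction. The genes that fell were Ftl1, Gpx4, Mt2, Hmox1, Mt1 and Srxn1, and the median log2 ratio was −0.53 over the 10 genes and 0.01 over all genes tested. Fth1, Nqo1, Txnrd1 and Gclm did not pass. The shares are over genes of every level and GC content, not over genes like these 10. Log2 ratios in this comparison differed with GC content, as described below. Both comparisons use the same 2 Aβ libraries, so a high Aβ value raises the first log2 ratio and lowers the second.

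Ftl1 fell by 1.32 on the log2 scale, to 7285 in Aβ+DFMO against 18174 in Aβ per the authors' deposited table (implied standard error 0.102, DESeq2 adjusted p = 2.27e-34). Fth1 was at 83128 in Aβ+DFMO and 96679 in Aβ per the authors' deposited table, with a log2 ratio of −0.22 (95% interval −0.41 to −0.03, DESeq2 adjusted p = 0.162). The subunits of one ferritin shell thus had log2 ratios with intervals that do not overlap, −1.52 to −1.12 for Ftl1 and −0.41 to −0.03 for Fth1, a difference that was not tested itself. The ratio of heavy to light chain means per kilobase was 11.9 in Aβ+DFMO, 5.54 in Aβ and 6.18 in Control. Here the light chain is the Ftl1 feature alone. It held 58.0% of the signal joint with 4 near-identical copies in Aβ+DFMO, 57.2% in Aβ and 56.6% in Control. For Aβ+DFMO over Aβ, genes within 1 percentage point of GC content had a median log2 ratio of −0.18 for Fth1 and −0.44 for Ftl1. What part GC content had in the difference between the chains was not tested. Hmox1 fell by 0.65, to 4084 in Aβ+DFMO against 6389 in Aβ per the authors' deposited table (implied standard error 0.139, DESeq2 adjusted p = 0.000238).

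Of the other NRF2-driven redox enzymes, Srxn1 fell and 3 did not pass. Srxn1 was at 2333 in Aβ+DFMO and 3271 in Aβ per the authors' deposited table, with a log2 ratio of −0.49 (implied standard error 0.163, DESeq2 adjusted p = 0.0350). Gclm was at 6692 in Aβ+DFMO and 6582 in Aβ per the authors' deposited table (0.02, 95% interval −0.23 to 0.27), the only positive ratio of the 10. Txnrd1 stood at 10746 in Aβ+DFMO and 11100 in Aβ per the authors' deposited table (−0.05, 95% interval −0.27 to 0.18). Nqo1 was at 306 in Aβ+DFMO and 339 in Aβ per the authors' deposited table, with an interval from −0.81 to 0.51 at an estimated 41 reads.

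Gpx4 fell by 1.30, to 729 in Aβ+DFMO against 1789 in Aβ per the authors' deposited table (implied standard error 0.215, DESeq2 adjusted p = 3.91e-07). Mt2 fell by 0.71, to 14033 in Aβ+DFMO against 22887 in Aβ per the authors' deposited table (implied standard error 0.0969, DESeq2 adjusted p = 2.00e-10). Its neighbour Mt1, which lies 5513 bases downstream on chromosome 8, fell by 0.58, to 15963 in Aβ+DFMO against 23795 in Aβ per the authors' deposited table (implied standard error 0.116, DESeq2 adjusted p = 6.28e-05). Reads of the pair can be told apart, since over the 183 coding bases the identity was 79.2% and no stretch of 75 bases was shared. The 90 coding bases with the most differences, 22 in number, are shown with those bases in capitals.
Mt1: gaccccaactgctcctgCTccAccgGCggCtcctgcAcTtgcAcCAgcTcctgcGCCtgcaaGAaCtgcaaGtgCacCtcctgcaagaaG
Mt2: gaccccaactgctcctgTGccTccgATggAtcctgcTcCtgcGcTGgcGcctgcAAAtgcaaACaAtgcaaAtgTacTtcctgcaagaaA

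**Figure D2:**
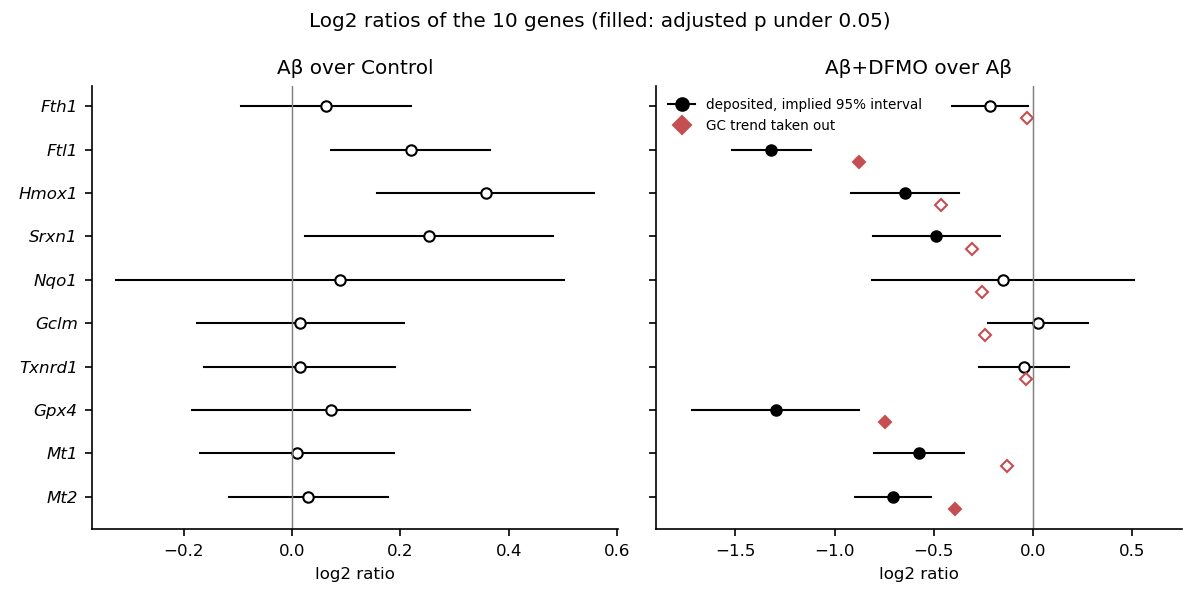
Log2 ratios (x axis) of the 10 genes for Aβ over Control and Aβ+DFMO over Aβ; circles are the deposited ratios with their implied 95% intervals, diamonds the ratios with the GC trend taken out, and filled symbols have an adjusted p under 0.05. No circle is filled for Aβ over Control, and 6 circles and 3 diamonds are filled for Aβ+DFMO over Aβ.

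The Aβ+DFMO library differed from Aβ by the GC content of transcripts. Among the 11743 genes whose Aβ mean reached 200, the median log2 ratio was 0.34 in the decile of lowest GC content and −0.53 in that of highest. The members that fell have GC contents of 53.3% (Hmox1 and Srxn1) to 60.2% (Gpx4), and those that did not pass have 42.1% (Gclm), 46.7% (Nqo1), 49.7% (Txnrd1) and 53.4% (Fth1). Genes within 1 percentage point of the GC content of Mt1 (58.1%) had a median log2 ratio of −0.45, near the −0.58 of Mt1 itself. Genes of the GC content of Ftl1 (58.1%) had a median of −0.44, and those of the GC content of Gpx4 one of −0.53.

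After subtraction of a smooth GC trend, 3 of the 10 genes fell and none rose, against 0.705% of all genes called lower, 0.818% called higher and 1.52% in either direction. They were Ftl1 (−0.88, adjusted p = 1.57e-14 from the implied standard error of the DESeq2 fit), Mt2 (−0.39, DESeq2-derived adjusted p = 0.00573) and Gpx4 (−0.75, DESeq2-derived adjusted p = 0.0360). Hmox1 lay just beyond the threshold (−0.47, DESeq2-derived adjusted p = 0.0510) and passed when transcript length was taken out as well (−0.50, DESeq2-derived adjusted p = 0.0235), where 4 of the 10 fell against 0.742% of all genes called lower and 1.52% in either direction. Srxn1 (−0.31, DESeq2-derived adjusted p = 0.603) and Mt1 (−0.13, DESeq2-derived adjusted p = 0.896) no longer passed. All 10 log2 ratios were negative after GC subtraction, as were 8817 of the 18591 genes with a GC content. Among the 10, Gclm was at −0.24, Nqo1 at −0.26 and Txnrd1 and Fth1 at −0.03. What part GC content had in each fall was not tested. The ratios of Ftl1 and Gpx4 also depend on reads shared with copies, as described below.

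**Figure D3:**
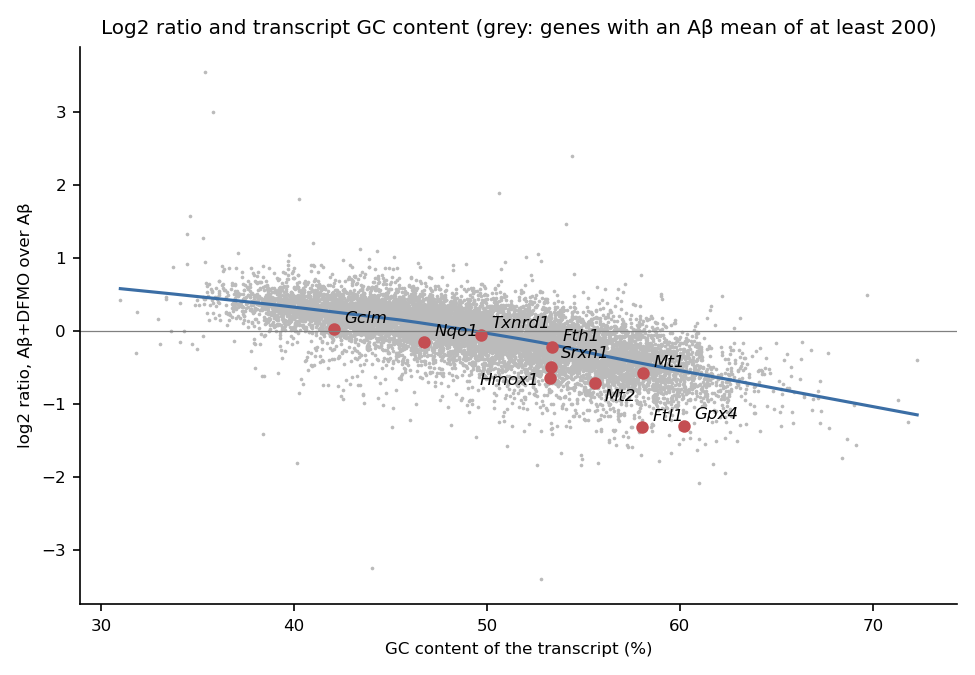
Log2 ratio of Aβ+DFMO over Aβ (y axis) against transcript GC content in percent (x axis) for the 11743 genes whose Aβ mean reached 200 (grey), their smooth trend (line) and the 10 genes (red). All 10 lie on the lower side of the line, from −0.03 (Fth1) to −0.88 (Ftl1) on the log2 scale.

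Ftl1 and Gpx4 share most of their sequence with a copy elsewhere in the genome. Ftl1 lies on chromosome 7 at 45457944 to 45459884 on the minus strand (GRCm38, GENCODE M21), and its retrocopy Ftl1-ps1 on the plus strand of chromosome 13 (74399694 to 74407346). Gpx4 lies on chromosome 10 at 80047166 to 80056439 and its transcribed pseudogene Gpx4-ps2 on the same chromosome at 45875291 to 45876086, both on the plus strand. Reads were 75 bases long, and 66.0% of the 75-base windows of the Ftl1 transcript and 55.3% of those of Gpx4 occur unchanged in the copy. These shares and all GC contents rest on a single transcript per gene, for Gpx4 one with 759 coding bases. Other transcripts of Gpx4 were not used, so its share, GC content and GC-subtracted ratio hold for that transcript only. Aligned coding bases were 99.6% identical, with 2 differences over 549 bases for Ftl1 and 2 over 509 for Gpx4. The 90 coding bases below hold both differences of the Ftl1 pair and 1 of the 2 of the Gpx4 pair, with the differing bases in capitals.
Ftl1: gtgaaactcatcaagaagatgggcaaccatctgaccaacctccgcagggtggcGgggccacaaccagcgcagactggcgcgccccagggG
Ftl1-ps1: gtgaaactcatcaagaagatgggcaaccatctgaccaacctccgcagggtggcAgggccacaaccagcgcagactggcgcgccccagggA
Gpx4: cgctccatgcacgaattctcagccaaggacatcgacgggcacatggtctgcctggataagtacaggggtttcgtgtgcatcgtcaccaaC
Gpx4-ps2: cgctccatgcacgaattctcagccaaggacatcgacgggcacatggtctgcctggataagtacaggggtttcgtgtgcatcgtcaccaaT

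The deposited signal was divided between these features. Ftl1-ps1 had an authors' mean of 5219 in Aβ+DFMO, 13467 in Aβ and 11872 in Control per the authors' deposited table, and its log2 ratios were −1.37 for Aβ+DFMO over Aβ (DESeq2 adjusted p = 9.13e-29) and 0.18 for Aβ over Control. Both ferritin light features therefore fell, and with all 4 near-copies in the table summed in (Ftl1-ps1, Ftl1-ps2, Ftl2-ps and Gm15590) the log2 ratio was −1.34 for Aβ+DFMO over Aβ and 0.20 for Aβ over Control. Gpx4-ps2 held most of the joint signal, at 5949 in Aβ+DFMO, 8529 in Aβ and 8238 in Control per the authors' deposited table. The share assigned to Gpx4 itself was 10.9% in Aβ+DFMO, 17.3% in Aβ and 17.1% in Control. Gpx4-ps2 fell by 0.52 in Aβ+DFMO against Aβ per the authors' deposited table (DESeq2 adjusted p = 0.00232), and the sum of gene and copy had a log2 ratio of −0.63 in place of −1.30. The size of the fall of Gpx4 thus depends on how shared reads were assigned, and after GC subtraction Gpx4-ps2 did not pass (−0.27, DESeq2-derived adjusted p = 0.512). The summed ratio of −0.63 had no GC trend subtracted. Most of that sum came from Gpx4-ps2, whose GC content is 54.6%, against 60.2% for Gpx4. Genes of the GC content of Gpx4 had a median log2 ratio of −0.53, which is thus no reference for the sum. What part GC content had in the summed ratio was not tested. Fth1 shared 3.86% of its windows with the pseudogene Gm6977, which held 0.319% of the joint signal in Aβ+DFMO, 0.481% in Aβ and 0.520% in Control.

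A further measure set the same genes apart. In the Aβ+DFMO column 81.1% of 7161 low values were whole multiples, within 0.05, of 7.45 units, here the value of a single read. This gave whole estimated reads, within 0.05, for the 7 members that share no 75-base window with another gene, such as 548 for Hmox1 and 313 for Srxn1. The 3 members that do share windows had fractional estimates, 977.6 for Ftl1, 97.8 for Gpx4 and 11154.6 for Fth1.

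**Figure D4:**
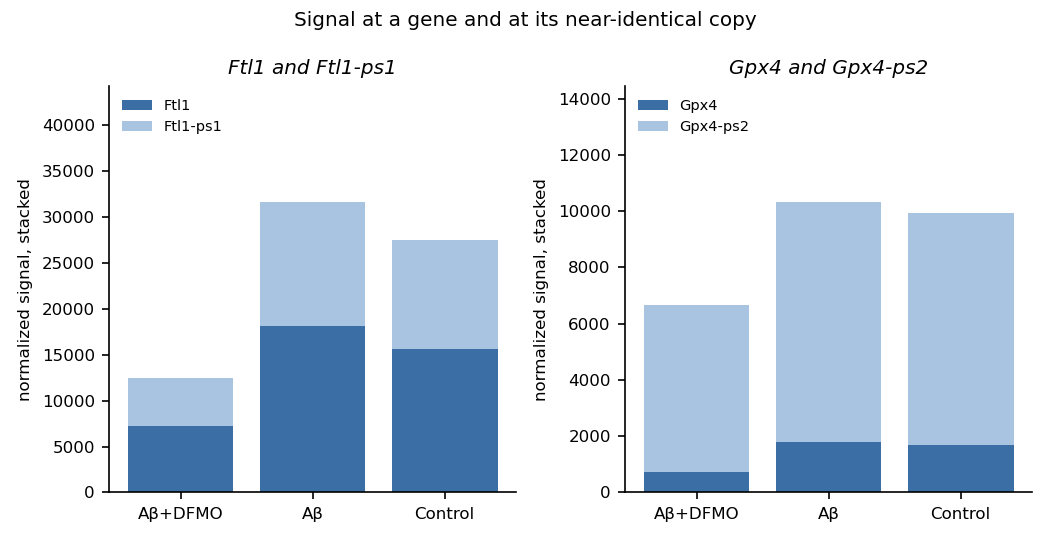
Authors' normalized means (y axis, stacked from 0) of Ftl1 with Ftl1-ps1 and of Gpx4 with Gpx4-ps2 in Aβ+DFMO (1 library), Aβ (2 libraries) and Control (2 libraries), with no error available. Gpx4-ps2 held 89.1% of its pair's signal in Aβ+DFMO, 82.7% in Aβ and 82.9% in Control.

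Against Control, the Aβ+DFMO means can be described only as ratios, since no test of that pair was used. The log2 ratio of Aβ+DFMO over Control was −1.10 for Ftl1, −1.22 for Gpx4, −0.68 for Mt2 and −0.57 for Mt1. It was −0.29 for Hmox1, −0.24 for Srxn1 and −0.16 for Fth1, and between −0.06 and 0.04 for Nqo1, Txnrd1 and Gclm. The median was −0.26 over the 10 genes and 0.02 over all genes.

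Other genes of the same pathways were described by 6 lists holding 103 genes, of which 101 were measured. In Aβ none of them passed in the authors' DESeq2 table, and list medians lay between −0.01 and 0.05. Among 24 further NRF2 targets, 21 had a positive log2 ratio in Aβ, as did 9597 of all 18783 genes, and the list median was 0.05. The smallest p of the 24 was that of Slc7a11, the cystine importer that feeds glutathione synthesis, at 594 in Aβ and 410 in Control per the authors' deposited table (0.54, unadjusted DESeq2 p = 0.00114, adjusted p = 0.260). Gsta4, a glutathione transferase for lipid aldehydes, had the next smallest p (0.18 per the authors' deposited table). NRF2 itself and its partners were close to Control in Aβ, with Nfe2l2 at 0.06 and the small Maf gene Mafk at −0.08 per the authors' deposited table. In the iron and heme list the smallest p-values were those of Trf (transferrin, −0.16) and Alas1 (the first enzyme of heme synthesis, 0.13) per the authors' deposited table. The zinc exporter genes Slc30a1 and Slc30a4 had −0.13 each per the authors' deposited table. Selenop, a selenium carrier, had −0.23 (unadjusted DESeq2 p = 0.00312, adjusted p = 0.528) and Selenow 0.12 per the authors' deposited table. Sod3, extracellular superoxide dismutase, had −0.12 and the peroxiredoxin Prdx6 0.09 per the authors' deposited table.

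In Aβ+DFMO against Aβ, 18 of these 101 genes passed, 3 higher and 15 lower, where 9.18% of all genes were called, 4% higher and 5.18% lower. Of the 24 further NRF2 targets 5 fell and none rose, with a list median of −0.35: Tkt (−0.49), Pgd (−0.51) and G6pdx (−0.46) of the pentose phosphate pathway, which supplies NADPH, the autophagy receptor Sqstm1 (−0.45) and the glutathione transferase Gstm1 (−0.34) per the authors' deposited table. Of the 9 regulators Nfe2l1, a relative of NRF2, fell (−0.48) and Cul3, the ubiquitin ligase scaffold that works with KEAP1, rose (0.34) per the authors' deposited table. Nfe2l2 (0.23, DESeq2 adjusted p = 0.124) and Keap1 (−0.32, DESeq2 adjusted p = 0.258) did not pass, per the authors' deposited table, and both are named after their values were seen. Of 21 iron and heme genes, the endosomal ferrireductase gene Steap3 fell (−1.12, an estimated 26 reads) and Ireb2, which encodes an iron regulatory protein that represses ferritin translation, rose (0.36) per the authors' deposited table.

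Mt3, the metallothionein known chiefly from brain, fell (−0.39), as did the zinc importer genes Slc39a1 (−0.40) and Slc39a7 (−0.55) per the authors' deposited table, out of 13 metallothionein and zinc genes with a list median of 0.08. Of 20 genes of glutathione peroxidases and lipid peroxidation, the selenoprotein genes Selenow (−0.70), Gpx3 (−0.63) and Gpx1 (−0.50) fell and Selenof (0.31) rose per the authors' deposited table, with a median of −0.09. Of 14 thioredoxin, peroxiredoxin and superoxide dismutase genes, Sod3 (−1.04) and Prdx6 (−0.34) fell per the authors' deposited table, with a median of −0.11. After the GC trend was subtracted, 2 of the 101 genes passed, Sod3 (−0.89, DESeq2-derived adjusted p = 0.000239) and Prdx6 (−0.41, DESeq2-derived adjusted p = 0.00572), and Mt3 had a ratio of 0.27 (DESeq2-derived adjusted p = 0.285). That count is near the 1.52% of all genes called in the same way. The ratios of Cul3 (−0.033) and Ireb2 (−0.0050) were then below 0 and did not pass.

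**Figure D5:**
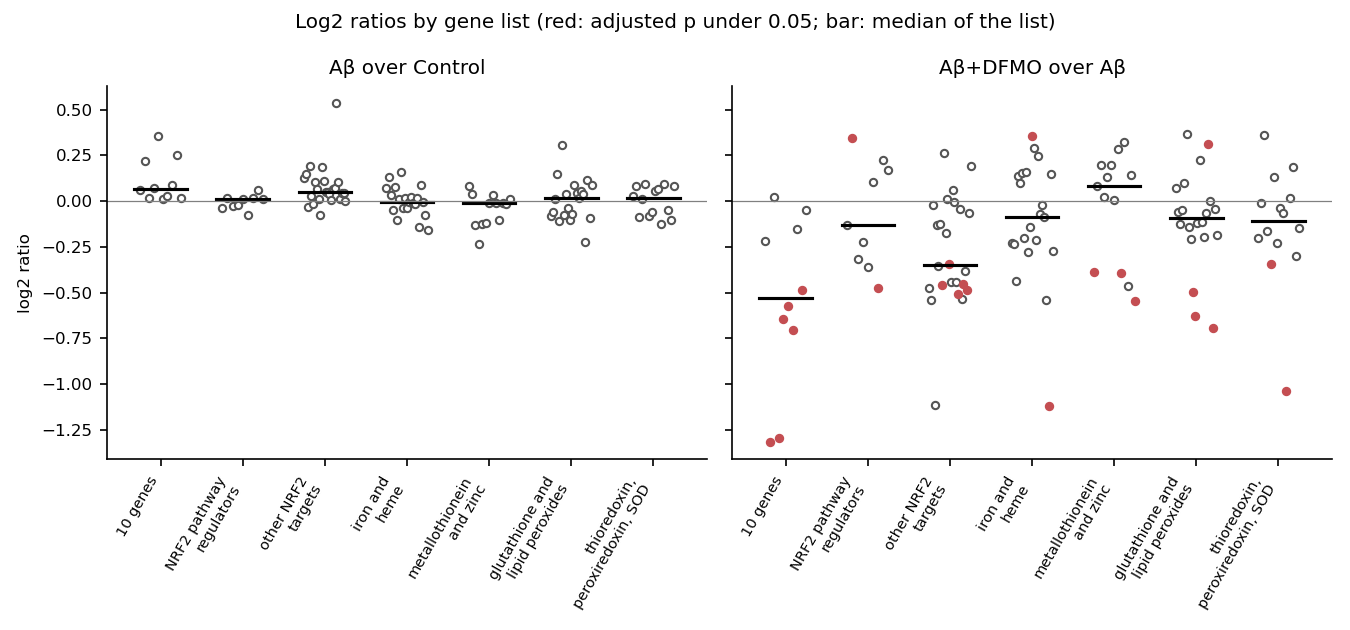
Log2 ratios (y axis) of the 10 genes and of the 6 lists of related genes for Aβ over Control and Aβ+DFMO over Aβ; each circle is a gene, red circles have an adjusted p under 0.05 and bars are list medians. No gene is red for Aβ over Control, while 6 of the 10 genes and 18 of the 101 others are red for Aβ+DFMO over Aβ.

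Markers of other cells also differed in the Aβ+DFMO library. Of 12 microglia and macrophage genes 3 fell and none rose, among them Cd68, at 1356 in Aβ+DFMO and 2735 in Aβ per the authors' deposited table (−1.01, DESeq2 adjusted p = 2.93e-08; −0.85 after GC subtraction, DESeq2-derived adjusted p = 1.56e-05). Trem2 (−0.80) and C1qa (−0.99) also fell, and after GC subtraction Cd68 alone of the 12 passed. Of 8 oligodendrocyte lineage genes 6 fell and none rose, with a median of −1.05, and after GC subtraction 3 did. Of 8 astrocyte markers 2 fell and none rose, Aldoc (−0.99) and Gfap (−0.47), with a list median of −0.21. After GC subtraction all 8 had negative ratios, with a median of −0.32, Aldoc at −0.88 and Gfap at −0.17. Of 5 neuronal genes Tubb3 fell (−0.78) and did not pass after GC subtraction. The 8 genes of fibroblasts, meninges and mural cells summed to 96193 in Aβ+DFMO, 82934 in Aβ and 80339 in Control. Most of that sum was Acta2, at 81013 in Aβ+DFMO, 66644 in Aβ and 65706 in Control. The list's median log2 ratio for Aβ+DFMO over Aβ was −0.13, with 5 of the 8 negative, and 0.22 after GC subtraction. Of the 8 genes, Acta2 (0.28) and Myh11 (1.37) rose and Cspg4 (−1.17), which is also on the oligodendrocyte list, fell, while after GC subtraction 3 rose and none fell. Of all genes, 5.18% were called lower and 4% higher, and after GC subtraction 0.705% were called lower and 0.818% higher. No marker of the microglial, oligodendrocyte or astrocyte lists was at 0 in Control. The part of these markers in the falls of Ftl1, Gpx4, Hmox1, Mt1, Mt2 and Srxn1 was not tested.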

How the data were processed

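RNA of primary mouse astrocyte cultures was sequenced as 75-base read pairs from poly-A RNA, per the labels' protocols. The submitters' processing notes name FastQC, STAR 2.7.3a, Partek and DESeq2, and the genome builds mm10 and GRCm39 with no role for either. Coordinates here are those of GENCODE M21 on GRCm38 and of RefSeq on GRCm38.p6. The authors deposited, for 18783 genes, normalized group means (a signal scaled across libraries), the ratio of means, the log2 ratio, and p-values with Benjamini-Hochberg adjusted p-values. The authors also deposited each library's read total and percent of reads in exons. Those rows were taken to groups by the group column of that file and not to single samples, since row names match no sample title. Values per library for each gene were not used here.

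The deposited ratios equalled the quotients of the group means within 0.1% for all 18783 genes. Standard errors were implied from the authors' log2 ratios and p-values under a Wald test. Trends on transcript GC content (lowess, span 0.3, fitted on 11743 genes whose Aβ mean reached 200) were subtracted, and p-values were recomputed and adjusted over 18591 genes. That step was run on simulated ratios with a straight GC trend and noise drawn from the same implied standard errors. Such a run cannot show whether the recomputed p-values hold for a single shallow library. Near-copies were found by exact 75-base windows between transcripts. Python 3.11.15, pandas 2.3.3, numpy 2.4.6, SciPy 1.17.1, statsmodels 0.14.6, Biopython 1.88 and matplotlib 3.10.9 were used. The genes and lists were chosen with earlier results of these data known. Named genes were the 10 members, the called genes of each list (up to 6) or else the 2 with the smallest p, near-copies in the table, and the genes nearest to Hmox1 and Ftl1.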

Additional observations from a re-analysis of the deposited data

How the results depend on the processing

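For Aβ+DFMO against Aβ, 3 of the 10 genes passed with the GC trend taken out, against 6 in the authors' DESeq2 table, and 4 passed with GC and length trends taken out. Of the 101 related genes, 2 passed with the GC trend taken out and 2 with GC and length trends taken out, against 18. Among the 10 genes, the calls lost were Hmox1 (−0.47) with GC taken out, Srxn1 (−0.31 with GC, −0.32 with GC and length taken out) and Mt1 (−0.13 with GC, −0.19 with GC and length taken out). The log2 ratio of Gpx4 was −0.63 when summed with Gpx4-ps2. The cause was not tested in any of these. No called ratio of the 10 genes changed sign under any alternative run. Among the called related genes, in an alternative chosen after seeing the data, signs changed for Mt3 (0.27 with GC, 0.21 with GC and length taken out), Cul3 (−0.033 with GC, −0.029 with GC and length taken out) and Ireb2 (−0.0050 with GC taken out). The count of 6 held at an adjusted p under 0.1, after centring on the median of all genes, and over genes whose Aβ mean reached 200. For Aβ against Control the count was 0 under each of these. No paired analysis was possible because the deposited gene values are group means, which carry no replicate numbers. For the same reason edgeR, other size factors and leaving out a replicate were not run. The Aβ+DFMO library, with 4825677 reads, limits low genes most, as with the estimated 41 reads of Nqo1.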

Other observations

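Genes with the pattern nearest to that of Hmox1 and Ftl1 were sought by Euclidean distance over both log2 ratios, among 10836 genes whose Aβ mean reached 200, without pseudogenes and unnamed predicted genes. Each pattern is drawn from only 3 group means, and both ratios share the Aβ libraries. Nearest to Hmox1 were Fat3 (distance 0.07), Clec4d (0.08) and Cfap54 (0.08). Clec4d, a C-type lectin receptor of myeloid cells, was at 358 in Aβ+DFMO, 561 in Aβ and 415 in Control per the authors' deposited table, and passed in neither comparison. Nearest to Ftl1 were Pcdhgc4 (distance 0.04), Xdh (0.06) and Il3ra (0.08). Of these 6 genes only Pcdhgc4, a clustered protocadherin, passed, with 235 in Aβ+DFMO and 582 in Aβ per the authors' deposited table (−1.31, DESeq2 adjusted p = 0.00192). Xdh, xanthine dehydrogenase, was at 82.0 in Aβ+DFMO, 211 in Aβ and 176 in Control per the authors' deposited table.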
